A study of Chlorocebus aethiops with 3 samples.

Results

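The messages described here encode the cyclins, kinases and inhibitors that govern passage through G1, the stretch of the cell cycle before DNA synthesis. They are CCND1, CCND2 and CCND3 (the D cyclins), CCNE1 and CCNE2 (the E cyclins), CDK2, CDK4 and CDK6 (their kinases), and CDKN1A and CDKN1B (the inhibitors p21 and p27). The rule for the set is a list of 10 RefSeq accessions and holds no threshold on a measured value. They are 10 of the 32695 sequence identifiers on the array, which carried 17 probes for them among 41000 probes in all. Of the 17 probes, 15 probes of 9 genes were bright enough to be tested, among 18143 tested probes of the whole array. CCNE2 was the gene with no tested probe, and 1 of the 3 CCND2 probes was also left out.

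D cyclins bind CDK4 and CDK6 and are made in answer to growth signals. The resulting kinases begin to phosphorylate the retinoblastoma protein, which otherwise holds back the E2F transcription factors. E cyclins then bind CDK2 and complete that step at the entry into S phase. The inhibitors p21 and p27 block CDK2 complexes and also bind complexes of the D cyclins, whose assembly they can promote.

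The cells were COS-7, a fibroblast-like line from African green monkey kidney that carries the SV40 large T antigen, a viral protein that binds the retinoblastoma protein. Both groups were COS-7 cells and differed in the siRNA given at 0.5 nM. The knockdown group received siRNAs against RHA (RNA helicase A, the product of DHX9), designed on the coding region of the human message, and the control group received scrambled siRNA. Cells were transfected, grown, split and transfected again, and were collected 24 hours after the last transfection. Heavy polysome fractions, where messages with many ribosomes sediment, were pooled from sucrose gradients of 15% to 45%. The labels give 3 biological replicates, and each of the 3 arrays set the knockdown RNA of a replicate (Cy5) against its control RNA (Cy3). RHA unwinds structured RNA and is known to aid the translation of selected messages, and the series asked how polysome loading changed when it was lowered.

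A log2 ratio here is knockdown over control on 1 array, after background correction and loess normalization. It is relative to the other RNAs of the fraction at like brightness. Total RNA was not analysed here, so a change in the abundance of a message, in its loading, or in the number of cells that carry it cannot be told apart. The dyes were never swapped, so knockdown and a dye effect common to all arrays cannot be told apart. The probes were designed on human sequence, and the monkey messages may match them unequally. Marker genes of the cell line and other genes of the G1 pathway were not analysed here, because no table pairing the other accessions with gene names was used.

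In the control channel 37.5% to 50.7% of all probes stood well above background, and in the knockdown channel 45.5% to 53.1%, with replicate 3 the brightest array in both. Replicate 1 had the widest ratios, with an SD over tested probes of 0.61, against 0.48 and 0.43 on replicates 2 and 3. The number of arrays limits the precision. The RHA message itself had mean log2 ratios of -0.33 ± 0.37 and -0.28 ± 0.29 (SD, n = 3) at its 2 tested probes. Neither passed the test (limma adjusted p = 0.210 and 0.217), and both means lay above 0 when arrays were centred on the median of all probes. Knockdown and control are the names that the labels give.

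Among the G1 regulators, both CDK6 probes and the CDK4 probe rose in knockdown polysomes, and 1 of the 2 CDKN1B probes fell. The rise was 2.45-fold and 1.67-fold at the CDK6 probes and 1.52-fold at CDK4. The CDKN1B probe fell to 0.636 times control, while the other CDKN1B probe did not pass the test. No D cyclin probe, nor those of CCNE1, CDK2 and CDKN1A, passed at an adjusted p under 0.05 (limma, Benjamini-Hochberg over all tested probes). The 3 risen probes are 20% of the 15 tested, where 9.72% of all tested probes rose. The 1 fallen probe is 6.67% of the 15, where 8.65% of all tested probes fell. By gene, 2 of 9 had a risen probe, against 10.6% of the 14526 identifiers tested, and 1 of 9 had a fallen probe, against 9.84%. These shares are a description of 15 probes and were not tested against the background. The CDK4 call was the least firm, with an adjusted p of 0.0490 that rose above 0.05 in 8 of 15 alternatives. Without replicate 2 no member probe was called, as was the case for every probe of the array.

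**Figure D1:**
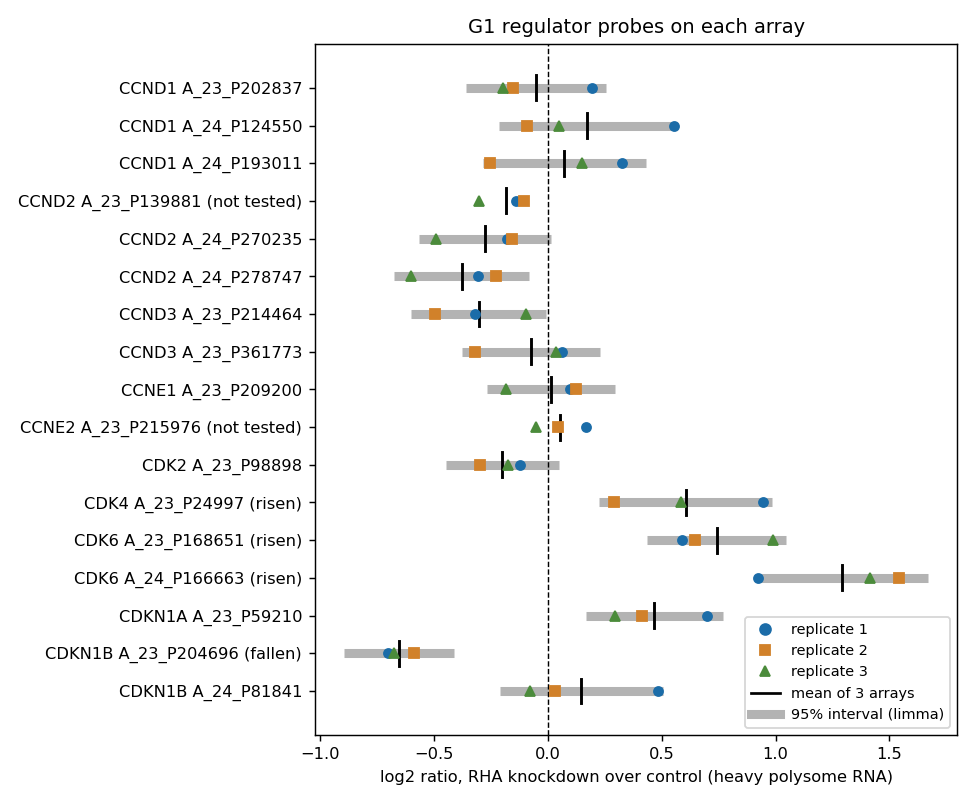
Log2 ratio of knockdown over control (x axis) for each of the 17 probes (rows), with a symbol for each array, a bar for the mean of 3 arrays and a grey band for limma's 95% interval of the tested probes. The bands of 7 probes clear 0. They are those of the 4 called probes of CDK6, CDK4 and CDKN1B, and those of CDKN1A, CCND2 A_24_P278747 and CCND3 A_23_P214464, which missed the threshold on the adjusted p.

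CDK6, the partner of the D cyclins alongside CDK4, had the largest mean ratio of the 10 genes. On replicate 1 the CDK4 ratio was as high, and with arrays centred on the median of all probes CDK4 lay between the CDK6 probes. On replicates 1, 2 and 3, probe A_24_P166663 of CDK6 (NM_001259) gave log2 ratios of 0.93, 1.54 and 1.41. Its spot signals were 215, 103.5 and 408 in the control channel, over local backgrounds of 31, 28 and 28. In the knockdown channel they were 829, 997.5 and 3059, over backgrounds of 59, 52.5 and 59. All 3 arrays were above 0, and replicate 1 was the lowest. The mean was 1.29 ± 0.33 (SD, n = 3), with a 95% interval of 0.92 to 1.67 and a limma adjusted p of 0.0156. Of all tested probes, 98.8% had a lower mean ratio. The second CDK6 probe, A_23_P168651, had 0.59, 0.64 and 0.99, again above 0 on every array, with replicate 3 the highest. It was dimmer, with control signals of 68, 59 and 144, each over a background of 26. Its mean was 0.74 ± 0.22 (SD, n = 3), with an interval of 0.44 to 1.05 and an adjusted p of 0.0232.

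The CDK6 probes thus agreed in direction on each array, and the difference in size between their ratios missed the threshold. The brighter probe exceeded the dimmer by 0.33, 0.90 and 0.42, a mean difference of 0.55 (95% interval 0.19 to 0.91). That difference had an adjusted p of 0.0690 in a limma fit over the 2 brightest probes of 2914 accessions, of which 7.86% were called. This fit was chosen after the values were seen. With array weights the difference was 0.64 and passed the threshold (adjusted p = 0.0371), and in the other 10 alternatives it did not. The mean difference ran from 0.35 with Agilent's own processed ratio to 0.69 with arrays centred on the median of all probes. Without replicate 2, limma called no probe on the whole array, and CDK6 had adjusted p of 0.117 and 0.128 with means of 1.17 and 0.79. In that fit 2228 probes above 0 and 2010 below had an unadjusted p under 0.05. In the other 14 alternatives both CDK6 probes stayed past the threshold.

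CDK4 (NM_000075), measured by probe A_23_P24997, gave log2 ratios of 0.95, 0.29 and 0.59 in the same order. The control spots gave 959, 1051 and 3997 and the knockdown spots 3534.5, 4094.5 and 19522, all far above local backgrounds of at most 62. Every array lay above 0, and the gap between the lowest and the highest was larger than the mean. The mean was 0.61 ± 0.33 (SD, n = 3), with a 95% interval of 0.23 to 0.99. The limma adjusted p was 0.0490, just inside the threshold. It rose above 0.05 in 8 of 15 alternatives, among them the fits without replicate 1, 2 or 3 (adjusted p of 0.0975, 0.128 and 0.0878), while the ratio stayed above 0 in all 15.

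CDK2 (NM_001798), the partner of the E cyclins, was measured by probe A_23_P98898, printed as 10 spots. Its ratios were -0.12, -0.30 and -0.18, below 0 on every array. The control signal was 38.1, 40.8 and 74.7 over backgrounds of 26.3, 27.1 and 26.9, so that the spots stood little above their surroundings on the first pair of arrays. The mean was -0.20 ± 0.090 (SD, n = 3), with a 95% interval of -0.45 to 0.050 and a limma adjusted p of 0.215. CDK2 was not called under any of the 15 alternatives.

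The kinases were compared with each other by the exact sign-flip test of their difference on each array, 2-sided, which with 3 arrays cannot go below p = 0.25. CDK6, at its brighter probe, exceeded CDK2 by 1.05, 1.84 and 1.59, a mean of 1.49 ± 0.40 (SD, n = 3; exact p = 0.25). CDK4 exceeded CDK2 by 1.07, 0.59 and 0.76, a mean of 0.81 ± 0.24 (SD, n = 3; exact p = 0.25). Both differences had the same sign on every array. CDK6 minus CDK4 was -0.020, 1.25 and 0.83, a mean of 0.69 ± 0.65 (SD, n = 3, exact sign-flip p = 0.50). At this CDK6 probe replicate 1 thus gave both genes like ratios. The dimmer CDK6 probe lay below CDK4 on replicate 1 (0.59 against 0.95) and above it on replicates 2 and 3. Its mean of 0.74 was close to the 0.61 of CDK4. Over the 7 pairs of members compared in all, the Benjamini-Hochberg adjusted p was 0.35 for exact p of 0.25 and 0.50 for the others, and none could have passed.

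**Figure D2:**
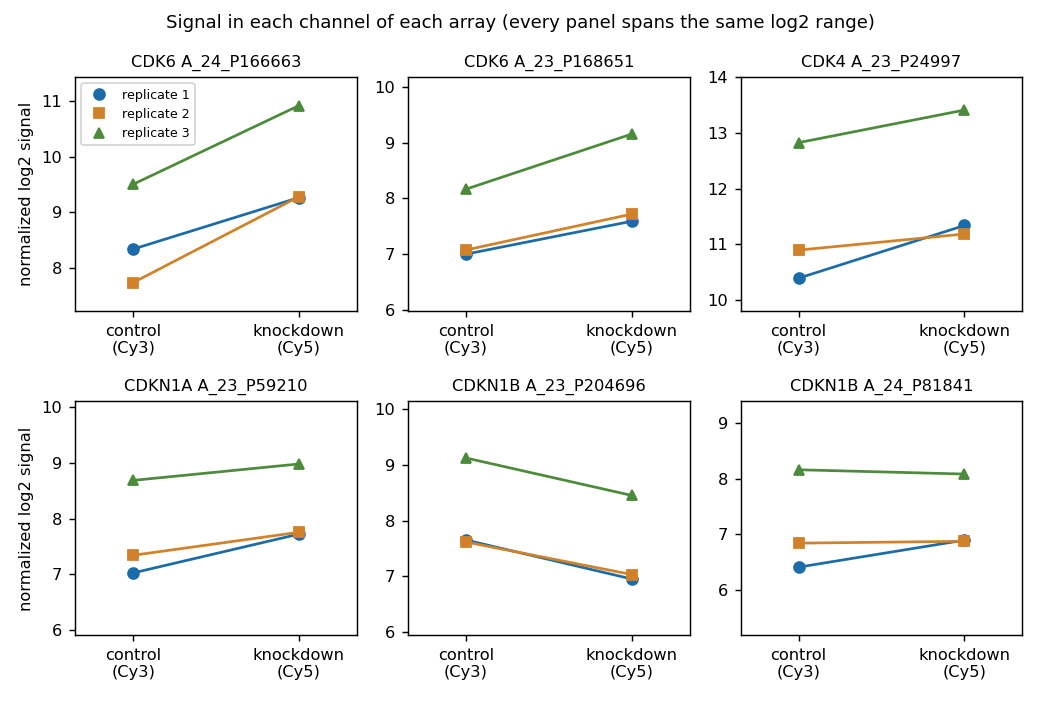
Normalized log2 signal (y axis) in the control and knockdown channel for 6 probes of CDK6, CDK4, CDKN1A and CDKN1B, with a line for each array. Every panel spans the same log2 range. All lines climb for CDK6, CDK4 and CDKN1A, all descend for CDKN1B A_23_P204696, and those of CDKN1B A_24_P81841 run in both directions. Replicate 3 is the brightest array in each panel.

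CDKN1A (NM_000389), which encodes p21 and is a target of p53, was measured by probe A_23_P59210, printed as 10 spots. Its log2 ratios were 0.70, 0.41 and 0.30. All 10 spots lay above 0 on each array, with spot SDs of 0.088, 0.080 and 0.046, less than the SD between arrays of 0.21. The ratio was thus above 0 on every array, with replicate 1 the highest. The mean was 0.47 ± 0.21 (SD, n = 3), or 1.38 times control, with a 95% interval of 0.17 to 0.77. The limma adjusted p of 0.0520 lay just outside the threshold, and CDKN1A passed it in 6 of 15 alternatives. It also passed in a fit over accessions with probes averaged (adjusted p = 0.0477). Its adjusted p ranged from 0.0204 to 0.203 over the 15, and its ratio stayed above 0 in all 15.

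CDKN1B (NM_004064), which encodes p27, gave unlike values at its 2 probes. Probe A_23_P204696, a single spot, had ratios of -0.70, -0.58 and -0.67. Its control signals were 122, 98 and 314.5 over backgrounds of 24, 23 and 23.5, and its knockdown signals 164, 191 and 463.5 over 62, 56 and 56. The arrays were close together and all below 0. The mean was -0.65 ± 0.060 (SD, n = 3), with a 95% interval of -0.89 to -0.41 and a limma adjusted p of 0.0196. Centring arrays on the median of all probes, in place of loess, gave this probe -0.17 and an adjusted p of 0.549. Without replicate 2 it had -0.69 and 0.124.

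Probe A_24_P81841 of CDKN1B, printed as 10 spots, had ratios of 0.48, 0.033 and -0.077. Its control signals were 40, 53.35 and 148.4 over backgrounds of 26.7, 27.35 and 27.6. It was thus dimmer in the control channel than A_23_P204696 on each array, and little above its surroundings on replicate 1. Replicate 1 stood above the others: its 9 unflagged spots ranged from 0.22 to 0.76, all above 0, while on replicate 3 all but 1 of 10 spots were below 0. The mean was 0.15 ± 0.30 (SD, n = 3), with a 95% interval of -0.21 to 0.50 and a limma adjusted p of 0.504. Without replicate 1 the mean was -0.022.

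The single-spot CDKN1B probe differed from the repeated one by -1.18, -0.62 and -0.60 on the log2 scale, and was the lower of them on every array. The fit over 2914 accessions was chosen after the values were seen. In it the mean difference was -0.80 (95% interval -1.18 to -0.42, limma adjusted p = 0.0429), and 6.07% of accessions differed by more. That call was lost in 6 of 11 alternatives, among them those without replicate 2 (adjusted p = 0.170) or 3 (0.0731), though its sign held in all 11. With both probes averaged, CDKN1B had -0.25 and was not called (adjusted p = 0.146). A direction for the CDKN1B message as a whole was therefore not established, and the places of the probes in the message were not used here.

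The inhibitors, CDKN1A at its only probe and CDKN1B at its brighter probe, differed on every array. CDKN1A exceeded CDKN1B by 1.40, 1.00 and 0.97, a mean of 1.12 ± 0.24 (SD, n = 3; exact sign-flip p = 0.25). The size of this difference rests on the CDKN1B probe that fell. CDKN1A (0.70, 0.41 and 0.30) also lay above the other CDKN1B probe (0.48, 0.033 and -0.077) on every array, but by less.

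**Figure D3:**
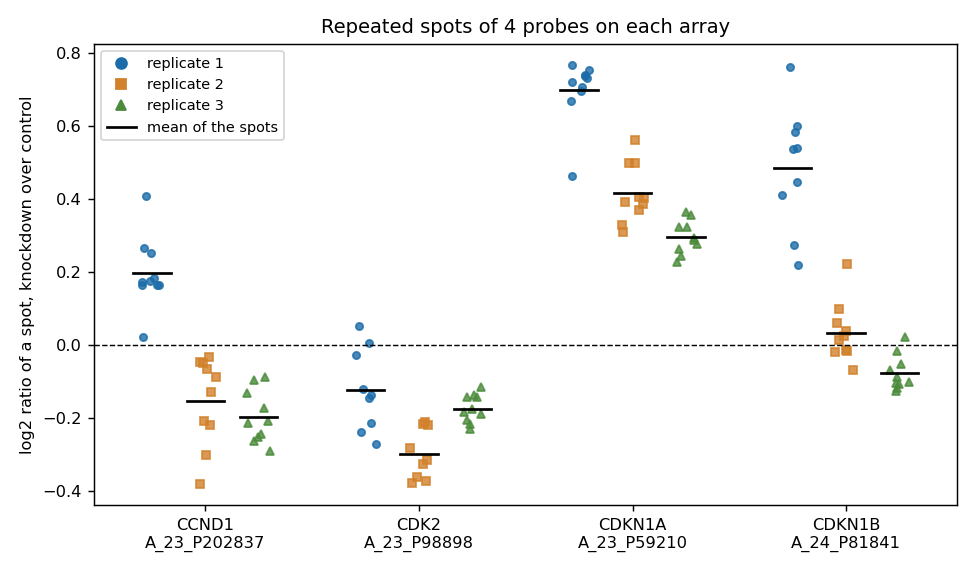
Log2 ratio of each unflagged spot (y axis) for the 4 probes that the array prints as 10 spots, by array, with a bar for the mean of the spots. Spots of an array lie near each other. Replicate 1 has the highest mean at each of the 4 probes, and at CCND1 all its spots lie above those of replicates 2 and 3. All CDKN1A spots lie above 0.

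The D cyclins did not pass the test at any of their 7 tested probes, whose mean log2 ratios ran from -0.38 to 0.17. CCND1 (NM_053056), the D cyclin best known as a target of growth factor signals, had 3 tested probes. Probe A_24_P124550 gave 0.56, -0.089 and 0.048 on the log2 scale, for a mean of 0.17 ± 0.34 (SD, n = 3). Probe A_24_P193011 had 0.32, -0.25 and 0.15, a mean of 0.074 ± 0.30. Probe A_23_P202837, printed as 10 spots, had 0.20, -0.15 and -0.20, a mean of -0.051 ± 0.22. At all 3 probes replicate 1 was the highest and lay above 0, and replicate 2 lay below 0. The repeated probe showed the same split within its spots, with 10 of 10 above 0 on replicate 1 and 10 of 10 below 0 on replicates 2 and 3. The spread between arrays thus exceeded the mean at each CCND1 probe, and the limma adjusted p values were 0.470, 0.743 and 0.793. Without replicate 1 the first pair of means fell below 0, to -0.020 and -0.052, and without replicate 3 the last rose above 0, to 0.022. The 95% interval of the brightest probe, A_24_P124550, ran from -0.22 to 0.56.

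CCND2 (NM_001759) lay below 0 on every array at each of its 3 probes. Probe A_24_P278747 had -0.31, -0.22 and -0.60, a mean of -0.38 ± 0.20 (SD, n = 3), with a 95% interval of -0.67 to -0.082 and a limma adjusted p of 0.0831. Probe A_24_P270235 had -0.18, -0.16 and -0.49, a mean of -0.28 ± 0.18, with an adjusted p of 0.156. The difference between these probes was small, 0.10 (95% interval -0.15 to 0.35). The untested probe A_23_P139881, well above background on replicate 3 only, had -0.14, -0.10 and -0.30. Replicate 3 was the lowest at all 3 probes.

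The CCND2 spots were dim, with control signals of 43.5, 40 and 91 over backgrounds of 26, 27 and 31 at A_24_P278747. An offset of 50 is added to each background-corrected signal and pulls the ratios of such spots toward 0. With an offset of 0 this probe had -0.85 and an adjusted p of 0.0102, and Agilent's own processed ratio gave -1.52 and 0.00384. It passed the threshold in 5 of 15 alternatives, and A_24_P270235 in 2 of 15.

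CCND3 (NM_001760) also had a probe below 0 on every array. Probe A_23_P214464 had -0.32, -0.49 and -0.096, a mean of -0.30 ± 0.20 (SD, n = 3) with a limma adjusted p of 0.136. It was the single tested member probe not well above background in every channel, with the knockdown channel of replicate 1 the exception. Probe A_23_P361773 had 0.064, -0.32 and 0.035, a mean of -0.073 ± 0.21 with an adjusted p of 0.702, so that replicate 2 alone set its sign (0.049 without it). Probe A_23_P214464 entered the test through its control channel, where it was the brighter, and was not tested when both channels had to be above background. Its values below 0 are therefore conditioned on the filter. With an offset of 0 it had -0.92 (adjusted p = 0.00945), and it was past the threshold in 3 of the 14 alternatives that tested it.

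Between the D cyclins, each at its brightest tested probe, CCND1 exceeded CCND2 by 0.74, 0.069 and 0.54, a mean of 0.45 ± 0.34 (SD, n = 3; exact sign-flip p = 0.25). CCND1 exceeded CCND3 by 0.49, 0.23 and 0.014, a mean of 0.24 ± 0.24 (SD, n = 3; exact p = 0.25). CCND2 minus CCND3 was -0.24, 0.16 and -0.52, with a mean of -0.20 ± 0.34 (SD, n = 3; exact p = 0.50). At these probes the first 2 differences kept 1 sign on all arrays, though the smallest value of each was close to 0. Each lost that sign on an array at another CCND1 probe, and kept it on all arrays at the remaining one. On replicate 2, CCND1 A_24_P193011 (-0.25) lay below CCND2 A_24_P270235 (-0.16). On replicate 3, CCND1 A_23_P202837 (-0.20) lay below CCND3 A_23_P361773 (0.035).

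CCNE1 (NM_001238), the E cyclin whose message was measured, had ratios of 0.098, 0.13 and -0.18 at probe A_23_P209200. Its control signals were 481, 342.5 and 1188, over backgrounds of at most 31, so the spots were bright. Replicate 3 lay below 0 and the others above it. The mean was 0.014 ± 0.17 (SD, n = 3), with a 95% interval of -0.27 to 0.30 and a limma adjusted p of 0.943. Without replicate 1 or 2 the mean was -0.028 or -0.042. Centring on the median of all probes gave 0.71, at an adjusted p above the threshold.

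CCNE2 (NM_057749), the second E cyclin, was well above background on replicate 3 only, in both channels. Probe A_23_P215976 gave 0.17, 0.047 and -0.051, for a mean log2 ratio of 0.055 ± 0.11 (SD, n = 3), at control signals of 28.5, 29 and 38 over backgrounds of 29, 27 and 28. On replicate 1 the control spot was no brighter than its surroundings. A change of CCNE2 was not detectable at these signals.

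Across the 15 tested probes, 4 lay above 0 on all arrays, 5 lay below 0 on all, and 6 had mixed signs. The 9 with 1 sign compare with 58.4% of all tested probes. The median of the members' mean log2 ratios was 0.014, beside 0.018 for all tested probes, and the median size was 0.28 beside 0.22. At an unadjusted p under 0.05 there were 7 of the 15, where 35.2% of all tested probes reached it. The set as a whole did not move one way, and CDK6 and CDK4 lay above CDK2 within the kinases.

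**Figure D4:**
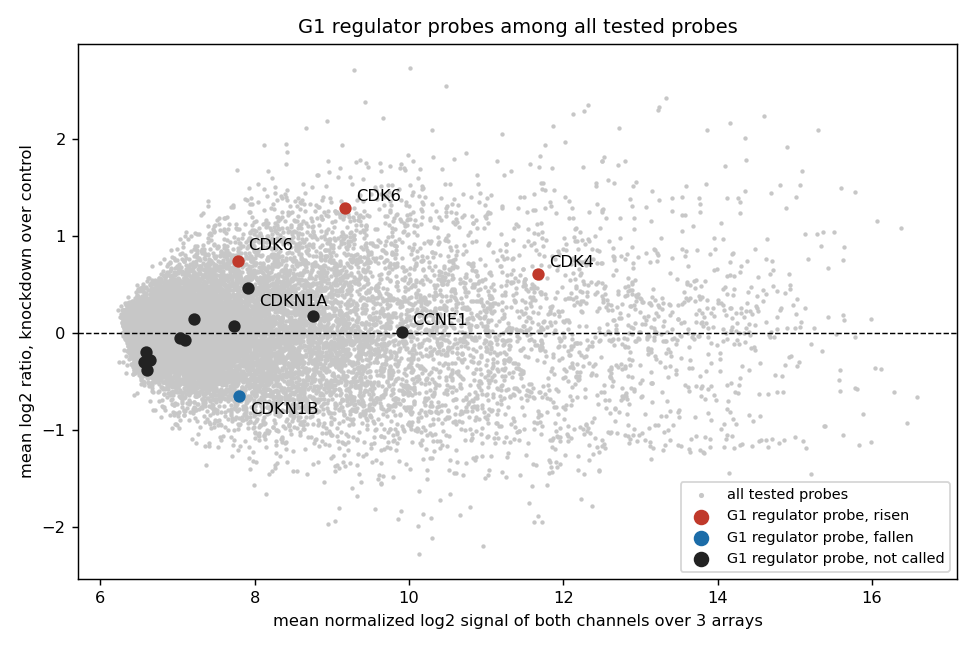
Mean log2 ratio (y axis) against the mean normalized log2 signal of both channels (x axis) for the 18143 tested probes in grey and the 15 tested probes of G1 regulators in colour. CDK4 is among the bright probes. Both CDK6 points lie in the upper part of the cloud, with 98.8% and 94.2% of all tested probes lower. The unnamed black points are the D cyclin probes, CDK2 and the second CDKN1B probe.

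Where 0 lies depended on the normalization, and with it several directions. With loess, 52.9% of all calls were upward. Centring each array on the median of all probes gave 98.4%, and the same step with the tested probes alone gave 74.2%. The first shifted the tested probes as a whole, whose median ratio went from 0.018 to 0.31. Under it CDK6 had 1.93 and 1.23, CDK4 1.43 and CDKN1A 0.98, and all 4 probes were called as risen. A_23_P202837 of CCND1 and A_23_P361773 of CCND3 turned from below to above 0, with 0.24 and 0.22, and neither was called. CCND2, CDK2 and CDKN1B A_23_P204696 stayed below 0 without a call. CDK6 was above 0, and the CCND2 and CDK2 probes and CDKN1B A_23_P204696 below 0, under all of the scalings tried.

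**Figure D5:**
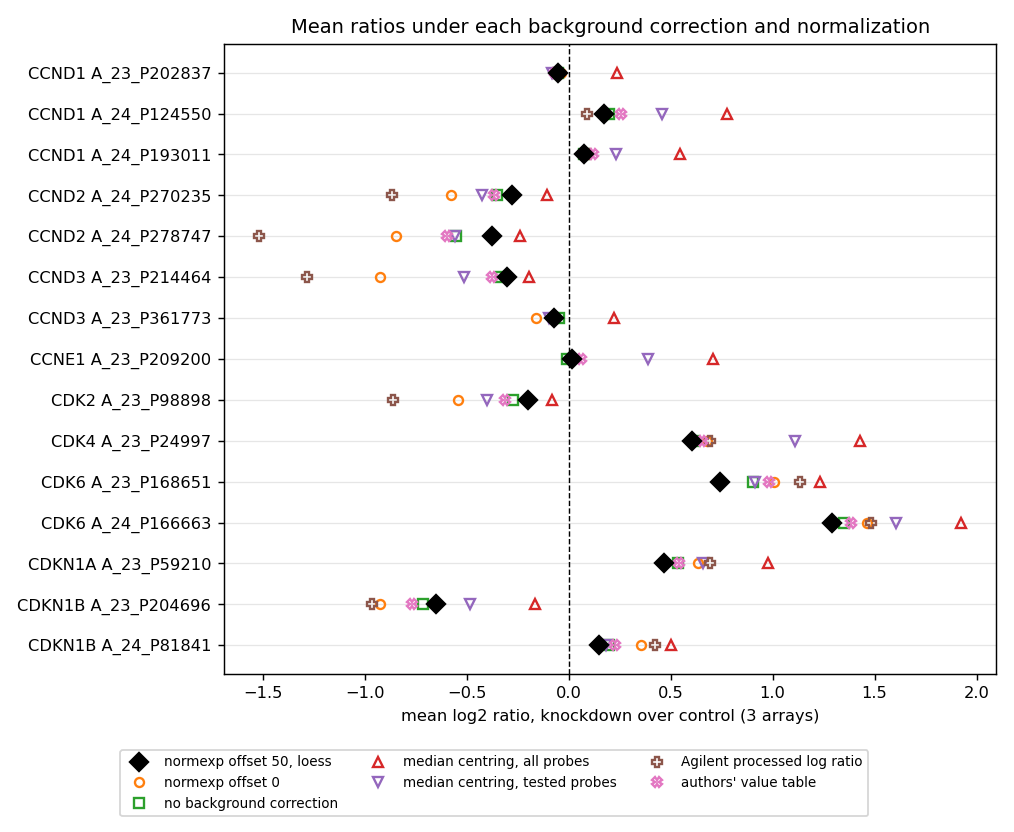
Mean log2 ratio of 3 arrays (x axis) for the 15 tested probes (rows) under 7 ways of correcting background and normalizing, with a symbol for each. Median centring of all probes lies furthest right in each row. CDK6, CDK4 and CDKN1A are right of 0, and CCND2, CDK2 and CDKN1B A_23_P204696 left of 0, in every setting shown. Dim probes such as those of CCND2 spread most to the left.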

How the data were processed

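Heavy polysome RNA was measured on 3 two-colour Agilent arrays (design 014850). The authors' deposited intensity values come from Agilent Feature Extraction, version 10.9.1.1 per the file headers, and limma is also named in the submitters' processing notes. The deposited log10 ratios are Cy5 over Cy3 of processed signals, per the file headers, and are exactly 0 on 31.1% of spots. The authors' series table holds log2 ratios of unstated scale and centring. They followed uncorrected loess ratios with slopes of 1.06, 1.07 and 1.05 and were used as an alternative. The genome build in the file headers is hg19, and no coordinates were used.

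Median intensities were corrected with normexp (offset 50) and normalized by loess in R 4.3.3 with limma 3.58.1. Mean signals were not used. Control spots had weight 0, flagged spots were left out (3 of the members' spots over all arrays), no spot was saturated, and spots of a probe were averaged. Tested probes stood well above background in 1 channel or both on all 3 arrays, in more than 0.5 of their spots. They were tested with lmFit and eBayes against 0, 2-sided, with Benjamini-Hochberg adjustment over all tested probes. The test was checked on simulated data with independent noise at each probe. Those data held no dye effect and no shift of a whole array, so the check does not cover them. All 10 members were named at every probe. The other pathway genes and cell type markers that the plan listed were not analysed here. The members, lists and tests were chosen with earlier results of these data known, and the test between probes of an accession after their values were seen. Alternatives changed background, normalization, filter, flags, variance model, weights, source, and left out each array.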

Additional observations from a re-analysis of the deposited data

Results flagged for a closer look

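Signal was seen at the 2 member probes left out of the test, on replicate 3 alone. The knockdown-channel spot of CCND2 probe A_23_P139881 gave 94.5 there, against a median of 59 for negative control spots, and its control channel gave 58.5 against 27. The knockdown-channel spot of CCNE2 probe A_23_P215976 gave 80.5 against the same 59, and its control channel gave 38 against 27.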

How the results depend on the processing

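Each ratio sets the knockdown of a replicate against its own control, so the test is itself paired, and no further term for the replicate could be fitted. With a replicate left out, 0 to 2 member probes rose and 0 to 1 fell, and 0 to 1502 probes in all rose and 0 to 1419 fell, the lowest each time without replicate 2. It also gave -0.18 to 0.022, -0.020 to 0.30 and -0.052 to 0.24 for CCND1 probes A_23_P202837, A_24_P124550 and A_24_P193011, -0.14 to 0.049 for CCND3 A_23_P361773, -0.042 to 0.11 for CCNE1 and -0.022 to 0.26 for CDKN1B A_24_P81841. Fallen member probes numbered 3 with normexp offset 0, 4 with Agilent's processed ratio, 4 with an intensity trend in the variance, 2 with the series table, 2 with centring on tested probes and 0 with centring on all probes. When probes of an accession were averaged, 0 member genes fell, in place of 1, and 3 rose, in place of 2, with CDKN1A the addition. Risen and fallen probes in all numbered 3604 and 58 with centring on all probes, 1066 and 997 with no filter on dim probes, and 3001 and 2523 with the trend. Risen probes numbered 2891 with offset 0, 3127 with centring on tested probes and 2809 with Agilent's ratio. Reversed signs were 0.24 for CCND1 A_23_P202837, 0.22 for CCND3 A_23_P361773, and 0.26 and 0.073 for RHA probes A_23_P97749 and A_24_P36847 with centring on all probes, and -0.0096 for CCNE1 with no background correction. Beyond the offset and the number of probes or arrays used, the cause was not tested. The pathway list was not run. Dim signals limit CCND2, CCND3, CCNE2 and CDK2. On replicates 1 and 2 they also limit CCND1 A_23_P202837 (control signals of 40.9 and 48.55) and CDKN1B A_24_P81841 (40 and 53.35).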
